A study of Mus musculus with 6 samples.

Results

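The 100 most abundant transcript models of resting mouse alveolar macrophages were described in 6 RNA-sequencing libraries, and followed through 2 h of exposure to hematin. The 100 members were chosen by their mean FPKM in the 3 mock libraries, among 7593 of 28427 models with an expected count of at least 200 in each mock library. FPKM is a read count scaled by model length and library size. A model is a set of 1 or more transcripts counted together. Rows whose first identifier starts with uc007km or uc008yb were left out, which removed 12 models with enough counts, 2 of them high enough to belong. Members are numbered 1 to 100 from the highest mean mock FPKM downward, and the mock values that set this order are given as a description, with no test.

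All 6 samples were alveolar macrophages of C57BL/6J mice, sorted from lavage fluid as CD11c+ Siglec-F+ cells, each from a pool of 3 mice. The mock group (n = 3) was kept in complete RPMI for 2 h with the solvent of hematin, whose stock was made in 0.1 M NaOH, although the series' design text speaks of untreated cells. The hematin group (n = 3) was kept in the same way with 40 μM hematin. No age or sex is given for the mice in the labels, nor whether any pools shared mice.

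Alveolar macrophages live in the airspaces of the lung, where they engulf inhaled particles, microbes and dying cells and break down spent surfactant. They also take up red cells and hemoglobin after bleeding into the airspace. Hematin is the oxidised, hydroxide-bearing form of heme, and cells handle free heme by breaking its ring and by storing or exporting the iron. In most cells a small number of genes supplies a large part of all messenger RNA, so a change in a few of them changes the composition of a whole library.

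The deposited tables name models by transcript identifiers such as uc009mhc.2, and none of the 55116 identifiers, the 194 of the members among them, could be matched to a gene symbol. Members therefore carry no name, function, position or sequence, and the sorted cell type could not be checked against its markers. Library totals ran from 22748791 to 36839446 expected counts. The lowest count of any member in any library was 4399, so that the Poisson counting error of a member value was at most 1.51%. The spread over the mock libraries was below its own counting error for 2 members, and over the hematin libraries for 0. On the first principal component of log2(CPM + 1) over tested models, with 37.0% of the variance, mock 3 and hematin 1 lay at 27.1 and 15.2 and the other 4 libraries between -18.5 and -2.08. Calls that leave out these libraries are given beside some of the members they change.

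Levels among the members fell steeply over the first few and slowly thereafter. Mean mock FPKM was 17704 for member 1, 3780 for member 10, 1011 for member 50 and 632 for member 100. In all, 50 members had a mean of 1000 or more. The median was 980 over the members and 6.23 over all 12595 models tested.

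**Figure D1:**
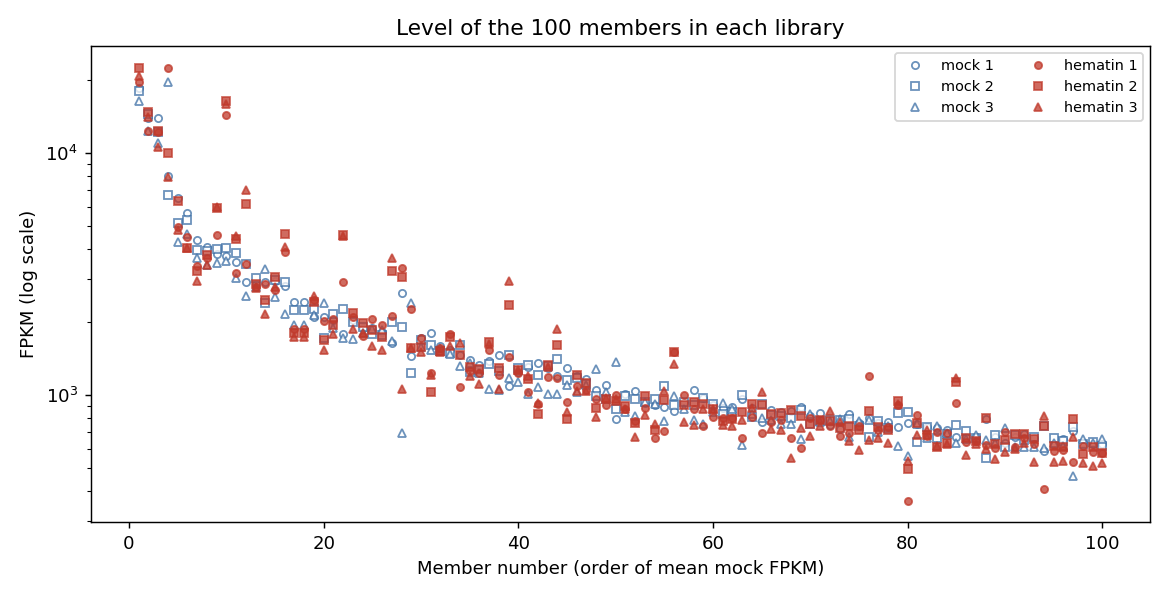
FPKM on a log scale against member number, with 1 point for each library (open blue, mock; filled red, hematin; circle, square and triangle for samples 1 to 3). The steep start and long tail are alike in the 6 libraries, and member 10 stands out with all hematin points far above its mock points.

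The highest member, uc009gvf.1 with uc009gvg.1, had FPKM values of 18632, 18054 and 16425 in mock samples 1 to 3, and of 19720, 22538 and 20806 with hematin. All hematin values lay above all mock values, by 0.45 on the log2 scale of TMM-scaled counts (SE 0.20), which did not pass the test (edgeR quasi-likelihood, Benjamini-Hochberg adjusted p = 0.369). It passed in 2 of 17 alternative fits, with DESeq2 (adjusted p = 0.0145) and with edgeR without mock 3 and hematin 1 (adjusted p = 0.0440). Without hematin 2 its edgeR adjusted p was 0.703. Member 2, uc008got.1, had 13907, 14452 and 12363 FPKM in mock and 12339, 14806 and 14046 after hematin. Its groups overlapped almost fully. Member 3, uc007hda.1 with uc007hdb.1, had 13915, 12205 and 10978 in mock and 12172, 12267 and 10554 after hematin, again with overlap.

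Member 4, uc008qvw.2, was unlike these. It had 8011, 6683 and 19575 FPKM in mock and 22438, 9990 and 7967 after hematin, so that mock 3 and hematin 1, one library of each group, were the high ones. In those 2 libraries it exceeded every other member. The log2 fold change was 0.43 (SE 0.46; adjusted p by edgeR = 0.719), and it was -0.088 without hematin 1.

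Members 5 to 9 had mean mock FPKM values between 3786 and 5302. Member 5 had 6483, 5127 and 4296 FPKM in mock and 4919, 6312 and 4780 after hematin, with overlap. Members 6 and 7 were lower in every hematin library than in any mock library on the FPKM scale, member 6 with 5632, 5285 and 4632 against 4506, 4064 and 4061. For member 7 the values were 4377, 3969 and 3685 against 3422, 3264 and 2962. Neither difference passed the test on TMM-scaled counts (edgeR adjusted p = 0.810 and 0.713), where the 2 groups overlapped. Member 8 was nearly level, with 4092, 3927 and 3433 FPKM in mock and 3685, 3782 and 3446 after hematin. Member 9 had 3832, 4002 and 3524 FPKM in mock and 4592, 5902 and 5962 after hematin, with no overlap, and a log2 fold change of 0.74 (SE 0.20; adjusted p by edgeR = 0.180). Member 9 passed in 3 of 17 alternative fits. These were DESeq2 (adjusted p = 8.65e-05), edgeR without hematin 1 (adjusted p = 0.0223) and edgeR without mock 3 and hematin 1 (0.00332). Hematin 1 was the lowest hematin library of member 9, so nothing is read from the passes without it. Without mock 1, mock 2, hematin 2 or hematin 3 the edgeR adjusted p of member 9 was 0.451, 0.393, 0.504 and 0.340.

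The members held a larger share of each hematin library than of any mock library. Their share of all counts was 25.3, 24.8 and 24.7% in mock samples 1 to 3, and 28.3, 29.2 and 27.8% with hematin. The means were 24.9 ± 0.296% and 28.4 ± 0.686% (SD, n = 3 each), and the groups did not overlap. Of summed FPKM, which weighs short and long models alike, they held 37.2 ± 0.238% and 40.7 ± 0.451% (SD, n = 3 each). In bulk samples such as these, more RNA of a kind per cell and more cells that hold it cannot be told apart.

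The larger share came from a few members. Of the gain of 3.53 percentage points of all counts, 1.85 points were those of member 10 alone, and the 6 largest gains, those of members 10, 12, 9, 1, 4 and 16, came to 3.45 points. The gain of member 4, 0.31 points, was a loss without hematin 1 (-0.37 points) or without mock 2 (-0.049 points), and reached 0.94 points without mock 3. Member 10 gained 1.78 to 1.94 points with any 1 library left out. Altogether 34 members had a higher mean share after hematin, adding 4.76 points, and the mean shares of the other 66 dropped by 1.23 points in sum. Without member 10 the members held 24.3 ± 0.298% in mock and 26.0 ± 0.651% after hematin (SD, n = 3 each). Without members 4 and 10 the groups overlapped, with 23.4, 23.1 and 21.2% in mock and 22.6, 25.1 and 24.1% after hematin. Members 51 to 100 held 5.15 ± 0.232% and 5.16 ± 0.215% of all counts (SD, n = 3 each), the same within the spread between samples. Of summed FPKM they held less after hematin, 7.15 ± 0.180% beside 7.55 ± 0.223% in mock (SD, n = 3 each), with overlap.

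**Figure D2:**
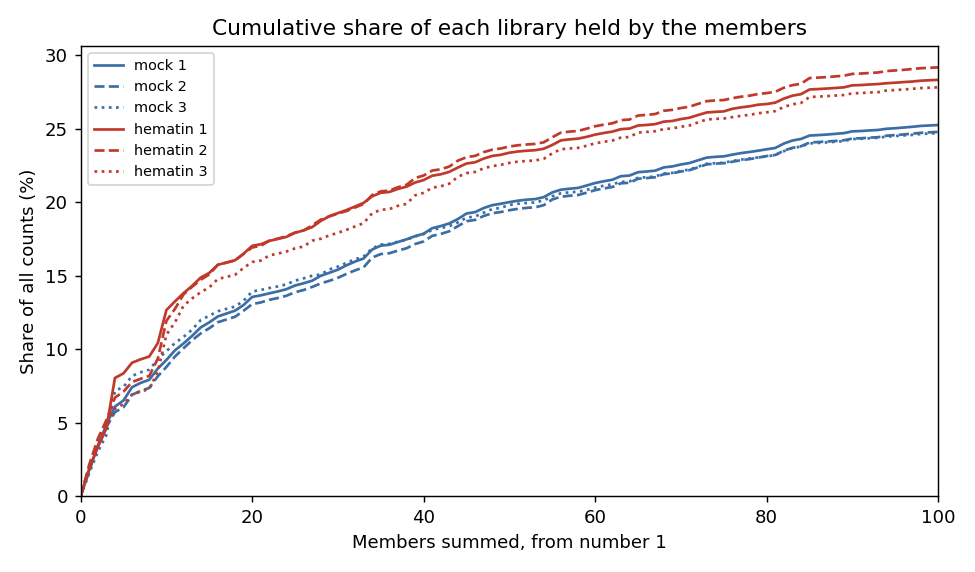
Share of all counts in percent, summed from member 1 to each member number, with 1 line for each library (blue, mock; red, hematin; solid, dashed and dotted for samples 1 to 3). The 3 hematin lines separate from the 3 mock lines at member 10 and end at 27.8 to 29.2%, against 24.7 to 25.3% in mock.

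Most members varied little in FPKM between pooled samples. Over the 3 mock libraries the median coefficient of variation of FPKM was 8.03%, beside 11.5% over all tested models, and over the 3 hematin libraries it was 8.0%, beside 13.8%. In mock samples 65 members varied by under 10% (43.8% of all tested models did), and 54 did so in both groups. Mock 3 was the lowest of the mock libraries for 62 members, and without it the median over the members was 4.08%. Without hematin 3, the lowest hematin library for 57 members, the median was 5.80%. From the lowest to the highest of the 6 libraries, FPKM differed by under 1.2-fold for 24 members and by over 2-fold for 10, beside 6.34 and 27.4% of all tested models. On TMM-scaled CPM the median coefficients of variation of members and of all tested models lay closer together. They were 10.3% beside 10.96% in mock and 9.87% beside 12.47% after hematin. Tested models mostly had far lower levels than members, and the part of counting error in these differences was not tested.

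The steadiest member on the FPKM scale was member 32, a model of 4 transcripts, whose FPKM was 1597, 1515 and 1559 in mock and 1566, 1516 and 1506 after hematin. Its highest value was 1.06 times its lowest. Member 87 was next at 1.09 times, with 670, 666 and 680 in mock and 645, 645 and 626 after hematin, all hematin values slightly below all mock values. On TMM-scaled CPM this order was turned, with 343, 349 and 330 in mock and 350, 389 and 372 after hematin. Member 32 also lay above mock in all hematin libraries on that scale, with 2379, 2320 and 2136 in mock and 2444, 2693 and 2555 after hematin. Other members were steadier there, such as member 61, with 1151, 1118 and 1143 in mock and 1115, 1205 and 1138 after hematin.

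**Figure D3:**
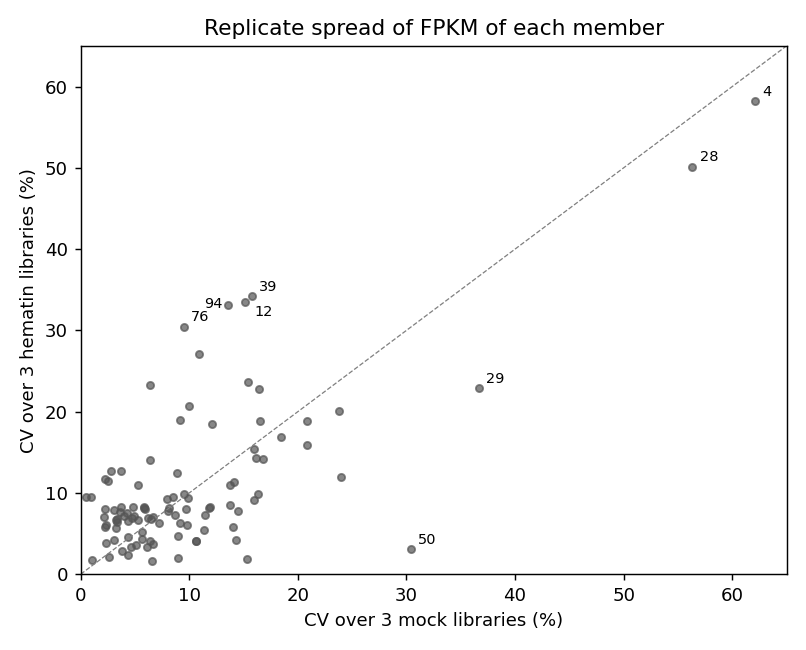
Coefficient of variation of FPKM in percent over the 3 hematin libraries against that over the 3 mock libraries, with 1 point for each member and a dashed line of equality. Most points lie near the origin, and numbers mark the members above 30% in either group, with members 4 and 28 far out in both.

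Of the members above 30% in either group, 4 were so in mock (members 4, 28, 29 and 50) and 6 after hematin (members 4, 12, 28, 39, 76 and 94). Member 28, uc008faz.1 with uc008fba.1, had 2641, 1903 and 693 FPKM in mock and 3339, 3077 and 1058 after hematin, so that 1 library of each group was far below the rest. The low libraries were mock 3 and hematin 3, a different pair from the high libraries of member 4. Its log2 fold change of 0.68 (SE 0.52) was within that spread (edgeR adjusted p = 0.594). Member 29 followed member 4 in part, with 1442, 1230 and 2393 FPKM in mock and 2275, 1556 and 1566 after hematin. Members 12, 39 and 94 were lowest in hematin 1 among the hematin libraries, at 3469, 1431 and 409 FPKM against 6129 and 7051, 2345 and 2956, and 743 and 819. The part of library differences in these values was not tested.

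The study compared hematin with mock cells to learn what heme does to transcription. Among the 100 members, all of which were tested, 2 rose and 0 fell at an adjusted p below 0.05 (edgeR quasi-likelihood test, n = 3 against 3, adjusted over 12595 models). Over all models tested 0.794% were called, 0.683% higher and 0.111% lower, so that 0 falls among 100 do not set the members apart. At an unadjusted p under 0.05, 16 members were higher and 1 lower, beside 7.02 and 7.12% of all models. The choice of members on mock levels, which are one side of this comparison, bears on these counts, and nothing is read from them.

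**Figure D4:**
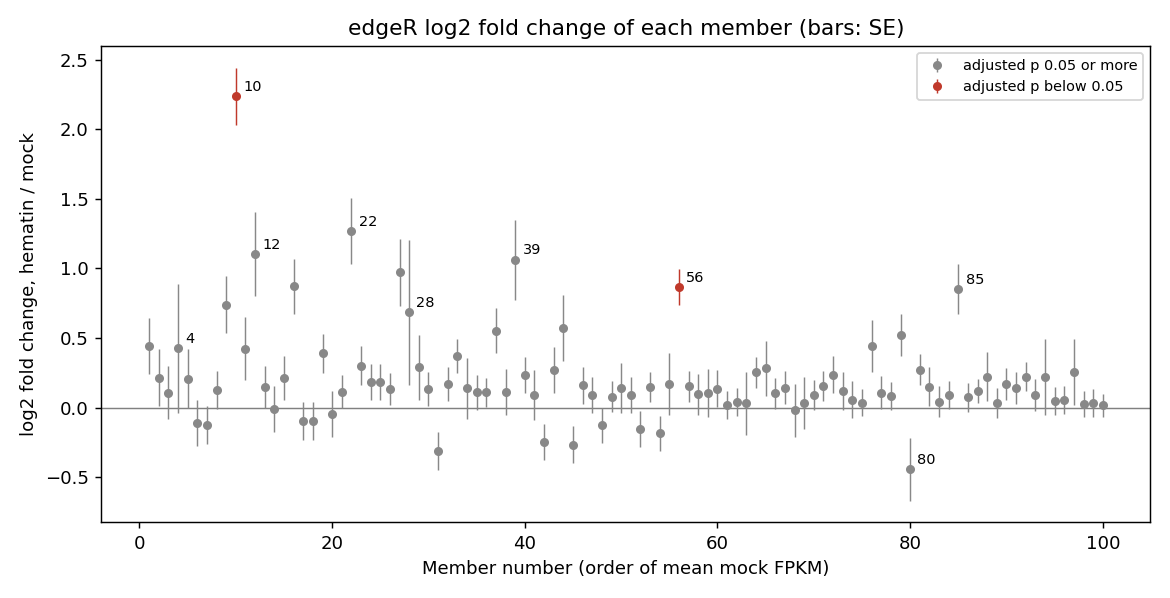
edgeR log2 fold change of hematin over mock for each member, with bars for the SE, against member number (red, adjusted p below 0.05; grey, the rest). Most points lie within 0.25 of 0, members 10 and 56 are the 2 that passed, and the other labelled members are described by their values.

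Fold changes were mostly small. The log2 fold change was under 0.25 in size for 71 members, at least 1 for 4 and at most -1 for 0, with a median of 0.13 over the members and -0.0086 over all tested models. With TMM scaling 86 members had a positive value. This sign depends on the zero point, since with plain library totals 34 were positive, with a median of -0.061 over the members and -0.20 over all models. The members' median exceeded that of all models by 0.14 under both scalings, and by 0.067 to 0.18 over the 17 alternative fits. It was lowest without mock 3 and 0.075 without hematin 2, where the members' own medians were 0.066 and 0.063. On the TMM-scaled CPM scale the hematin values lay wholly above the mock values for 21 members and wholly below for 2, beside 9.75 and 10.8% of all models. On the FPKM scale, which follows plain totals, this held for 13 and 21 members, beside 3.28 and 28.9%.

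The largest rise was that of member 10, uc009mhc.2. Its FPKM was 3749, 4028 and 3562 in mock and 14326, 16362 and 15976 after hematin, and every hematin value was over 3 times any mock value. On TMM-scaled counts the log2 fold change was 2.24 (SE 0.21), a 4.72-fold rise (edgeR adjusted p = 0.00303), beside 4.12-fold in mean FPKM. It passed in 16 of 17 alternative fits and missed the threshold without mock 1, at the same fold (edgeR adjusted p = 0.0562). It had rank 10 in the mock mean and rank 2 in the hematin mean, behind member 1.

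Member 56, whose 10 transcripts begin with uc008zrg.1, was the other that passed. It had 854, 910 and 986 FPKM in mock and 1502, 1505 and 1345 after hematin, with no overlap and little spread in either group. The log2 fold change was 0.87 (SE 0.13), a 1.82-fold rise (edgeR adjusted p = 0.0232). It passed in 13 of 17 alternative fits. The call was lost without mock 1, mock 2, hematin 2 or hematin 3, at adjusted p-values of 0.216, 0.160, 0.135 and 0.0639 and log2 fold changes of 0.79 to 0.90.

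Several members differed as much or more but did not pass. Member 22 had 1782, 2263 and 1723 FPKM in mock and 2930, 4596 and 4556 after hematin, a log2 fold change of 1.27 (SE 0.24; adjusted p by edgeR = 0.0594), and it passed in 8 of 17 alternative fits. For member 85 the FPKM values were 672, 753 and 634 in mock and 926, 1133 and 1177 after hematin, with a log2 fold change of 0.85 (SE 0.18; adjusted p by edgeR = 0.0838). Neither pair of groups overlapped. Member 16 had 2830, 2921 and 2152 against 3907, 4644 and 4080 FPKM, also without overlap, at a log2 fold change of 0.87 (SE 0.20; adjusted p by edgeR = 0.113). Without hematin 1, members 22, 85 and 16 passed (edgeR adjusted p = 0.00452, 0.0128 and 0.0449), as they did with mock 3 left out too (0.00177, 0.00360 and 0.00676). In these fits 1.41 and 1.6% of all models were called higher. Both fits leave out the lowest hematin library of each of these members, so nothing is read from these passes. Over the 17 alternative fits, members 85 and 16 passed in 6 and 3.

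In 3 further members the hematin libraries differed among themselves. Member 12 had 2924, 3468 and 2570 FPKM in mock and 3469, 6129 and 7051 after hematin, so that hematin 1 only just exceeded mock 2. Member 27 had 1644, 1993 and 1675 against 2109, 3239 and 3691 FPKM, and member 39 had 1085, 1461 and 1178 against 1431, 2345 and 2956. In each of them hematin 1 lay near the mock range while hematin 2 and 3 lay well above it. Their log2 fold changes were 1.10, 0.97 and 1.06 (SE 0.30, 0.24 and 0.29), and none passed (edgeR adjusted p = 0.180, 0.141 and 0.178). Without hematin 1, all 3 passed in a fit that called 9 members (1.41% of models higher), and also with mock 3 left out too. Both fits leave out the library in which these members lay near mock, so nothing is read from these passes. Over the 17 alternative fits, members 12, 27 and 39 passed in 2, 3 and 2.

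**Figure D5:**
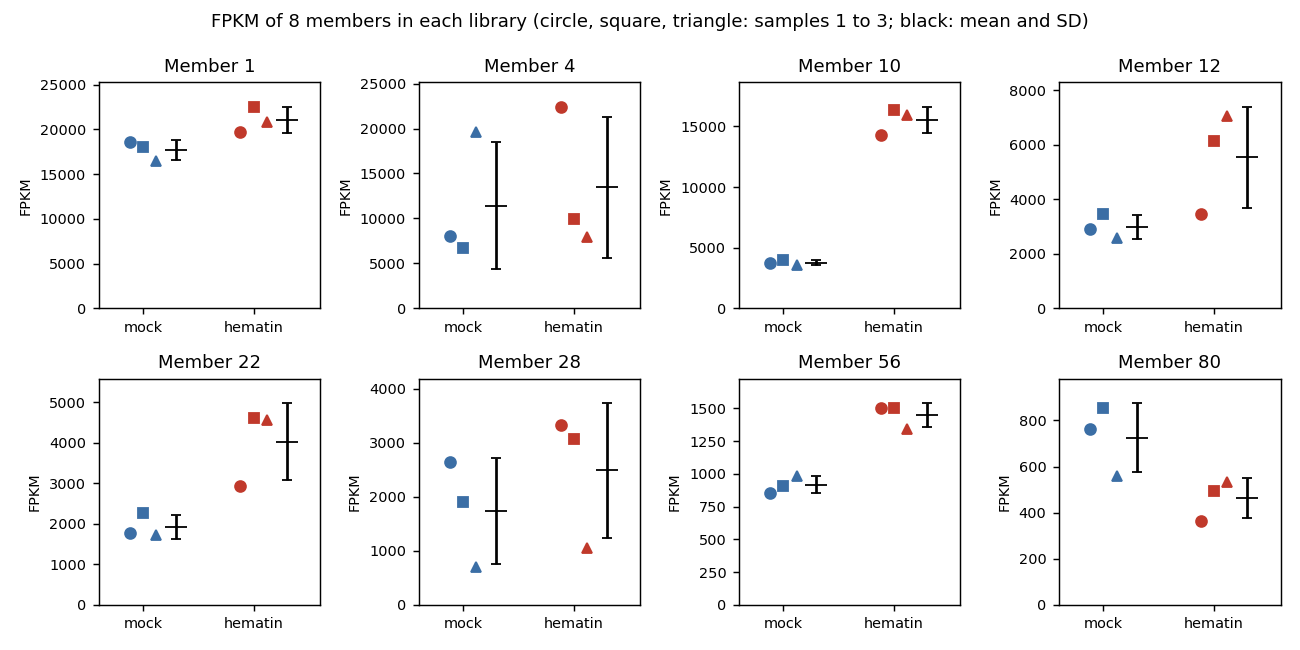
FPKM of members 1, 4, 10, 12, 22, 28, 56 and 80 in each library, with black marks for the mean and SD of 3 samples, each panel from 0. Members 10 and 56 show tight and separate groups, while in members 4 and 28 single libraries of both groups lie far from the others.

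The number of calls varied with the tool and the libraries. DESeq2 called 12 members higher (2.36% of all models with an adjusted p) and edgeR without mock 3 and hematin 1 called 13 (1.6% of models). Members 10 and 56 were the calls of limma-voom (0.675%), and also of limma-trend on log2(FPKM + 1) (0.508%), and edgeR with plain library totals called 4 (0.54%). There were 4 calls without a filter (0.674% of models higher) and with limma-trend on log2(FPKM + 0.1) (0.556%). With 1 library left out, edgeR called 0 members without mock 1 (0.0936% of models), and 1 each without mock 2 (0.162%), hematin 2 (0.123%) or hematin 3 (0.264%). Without mock 3 it called 2 (0.57%). None of these fits called a member lower. At an unadjusted p under 0.05 the members lower were 3 by DESeq2 (3.63% of models with a p), 1 by limma-voom (7.11%) and 10 by limma-trend on log2(FPKM + 1) (24.1%).

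The lowest fold change was that of member 80, with 763, 853 and 559 FPKM in mock and 365, 493 and 533 after hematin. Its groups did not overlap in FPKM but did in TMM-scaled CPM, and the log2 fold change of -0.45 (SE 0.22) did not pass (edgeR adjusted p = 0.420). By mean FPKM it went from rank 80 to rank 169, the farthest descent of any member.

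A run of 7 members, most of which moved alike, had identifiers that follow each other without a gap, from uc009vew.1 to uc009vfc.1. They were members 6, 7, 18, 31, 42, 45 and 68, noticed after their values were seen. Together they held 2.43, 2.23 and 2.03% of all counts in mock and 1.85, 1.73 and 1.68% after hematin, with no overlap. These shares follow plain library totals. On TMM-scaled CPM member 6, the highest of the run, overlapped, with 8527, 8221 and 6656 in mock and 7250, 7270 and 7167 after hematin. In FPKM 6 of the 7 were lower in every hematin library than in any mock library, and in TMM-scaled CPM 2 were, where 28.9 and 10.8% of all models were. Their edgeR log2 fold changes lay between -0.31 and -0.020, negative for all 7 under each of 4 scalings, and 0 passed the test (adjusted p of 0.351 to 0.975; 1 at an unadjusted p under 0.05). Member 68, the least changed, had 861, 799 and 759 FPKM in mock and 662, 868 and 549 after hematin, so that hematin 2 exceeded every mock value. Its log2 fold change turned positive when some libraries were left out.

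Counts in this run are uncertain. Member 18, uc009vfa.1, and member 17, uc007ams.1, which lies outside the run, had identical counts in all 6 libraries, from 36428 to 72955. They are described as 2 members but carry 1 measurement, since no reads were told apart between them. In all, 4 of the 7593 eligible models shared their counts with another in this way. In total 23 members fell into 9 runs of neighbouring identifiers, the other 8 runs being pairs, and reads divided between neighbours could tie their values. Members 22 and 29 were such a pair, with log2 fold changes of 1.27 and 0.29, so neighbours did not always move together. Expected counts were not whole, by over 0.005, in all 6 libraries for 92 members and for 53.5% of eligible models.

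The order of the members was largely kept. By the same rule applied to the 3 hematin libraries, 90 of the 100 members were again among the 100 highest, 90% of each list. In single libraries 94, 96 and 96 members were among the 100 highest in mock, which chose them, and 90, 87 and 91 after hematin. Of the first 10 members, 8 stayed within the first 10 of the hematin mean, and of the first 50, 46 stayed within the first 50. The median change was 6 places, with 24 members up, 68 down and 8 at the same rank. A choice by mock rank favours descents, so the balance is not read as an effect. Spearman correlations of FPKM over the members had a median of 0.936 in the 6 pairs of libraries within a group (0.905 to 0.971) and 0.923 in the 9 pairs between groups (0.875 to 0.944). These describe models that share libraries and length scaling.

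The farthest climbs were those of member 85, from rank 85 to 48, member 79, from 79 to 52, and member 76, from 76 to 54. For member 76 the climb rested on hematin 1, with 1194 FPKM beside 856 and 650 in the other hematin samples and 671 to 804 in mock. Among the first 20 members, members 12 and 16 came to ranks 6 and 10, while members 7 and 8 went to ranks 14 and 13.

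Most of the 10 members that left the hematin list came from its lower edge, where levels lie close together. They had mock ranks of 80 to 100, and on TMM-scaled counts 9 of them had log2 fold changes between 0.015 and 0.14. In mean FPKM, the scale of the ranks, these 9 were lower after hematin, with differences of -11.8 to -3.66%. The 10 models that took their places had mock ranks of 101 to 233. The last 3 members had mean mock FPKM values of 637, 633 and 632, and the first 3 models outside had 631, 630 and 622. The first model outside had 649, 729 and 517 FPKM in mock and 1117, 1329 and 1166 after hematin, so that the line between members and other models left out one with a difference larger than that of member 56. The model that climbed the farthest, from rank 233 to rank 37, owed this to 1 library, with 3172 FPKM in hematin 2 beside 648 and 369 in hematin 1 and 3 and 299 to 415 in mock.

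Members were short and often had a single transcript. The effective length, worked out from FPKM, count and library total, had a median of 1254 nt over the members (317 to 4158 nt) and 2841 nt over eligible models. It was under 1000 nt for 39 members, beside 7.41% of eligible models. FPKM divides by length and so favours short models in this choice: of the 100 models with the highest mean share of mock counts, 62 were members and 10 were under 1000 nt. Models of 1 transcript made up 54% of the members and 30.7% of eligible models.

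In a split by length made after the values were seen, most of the larger differences lay among the long members. Among the 39 members under 1000 nt, 1 had a log2 fold change over 0.5, member 22, and among the 61 others 12 had. The median was 0.10 over the short and 0.15 over the long members. The short members held 4.92 ± 0.357% of all counts in mock and 5.18 ± 0.320% after hematin, and the long ones 19.995 ± 0.197% and 23.3 ± 0.410% (SD, n = 3 each). Member 10, at 1569 nt one of the long members, alone gained 1.85 points. The difference between short and long members was not tested.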

How the data were processed

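Alignment used Bowtie 1.0.1 and counting RSEM 1.2.15 on mouse build mm9, with SAMtools 0.1.19 and bcl2fastq 2.15.0 also listed, per the submitters' processing notes. Per the file headers, each of the 6 deposited tables held an expected count (an estimated count that need not be whole) and an FPKM for each model. No source used here gives the strand setting. The authors' FPKM values follow plain library totals.

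Groups were taken from the treatment labels, and sample numbers 1 to 3 only name samples in order of deposit. Expected counts were rounded and fitted over all models in R 4.3.3 with edgeR 4.0.16 (filterByExpr, TMM, glmQLFit, glmQLFTest, Benjamini-Hochberg threshold 0.05), without covariates. The fit was also run on simulated counts with the same dispersion for every model and no outlying library. Such counts do not stand for data with libraries like mock 3 and hematin 1. The SE is the log2 fold change divided by the root of F. Since samples are pools, p-values reflect differences between pools, which may share mice. Alternatives were 3 other scalings, 2 filters, DESeq2 1.42.0, limma 3.58.1 (voom, and trend with pseudocounts of 1 and 0.1), unrounded counts, left-out libraries and 3 other member rules.

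The members, rules and alternatives were chosen with earlier results of these data known. The rule for named members took numbers 1 to 10, every member past the threshold and the rows on both sides of the line, with identifiers for called members. Other members and identifiers were singled out after their values were seen. The marker and pathway lists could not be used without gene names.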

Additional observations from a re-analysis of the deposited data

How the results depend on the processing

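Over all 100 members, 33 to 88 had a positive fold change in the 17 alternative fits, beside 86 with TMM scaling, the fewest with limma-trend. Among 31 members followed singly (numbers 1 to 10, those at an unadjusted p under 0.05, members 28 and 80 and the run), 4 turned direction in 11 of 527 values. Member 3 was at -0.084 with plain library totals and -0.081 with limma-trend at either pseudocount, and member 8 was at -0.067 in those 3 fits. With 1 library left out, member 4 ranged from -0.088 (without hematin 1) to 1.01 (without mock 3), and member 68 from -0.26 to 0.11, positive without mock 1 (0.036), hematin 1 (0.053) or hematin 3. Member 68 was at 0.00068 with mock 3 and hematin 1 both left out. The members' median log2 fold change was -0.061 with plain library totals and -0.064 with limma-trend on log2(FPKM + 1) and on log2(FPKM + 0.1), all 3 without TMM scaling. Calls among the members, all of them higher, numbered 4 with plain totals, without a filter and with limma-trend on log2(FPKM + 0.1), 12 with DESeq2 and 13 without mock 3 and hematin 1. With 1 library left out there were 0 to 9 (0 without mock 1, 1 without mock 2, hematin 2 or hematin 3, 9 without hematin 1). For other than left-out libraries the cause was not tested.

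Members chosen by mean FPKM of all 6 libraries, of which 93 were shared, held 25.6% of counts in mock and 29.8% in hematin samples, and 94.3 of them on average were among the 100 highest in a hematin library. Hematin values took part in that choice and so favour high hematin figures, from which nothing is read. The median coefficient of variation of the 100 members was 10.3% in mock and 9.87% in hematin samples on TMM-scaled CPM, beside 10.96 and 12.47% over all tested models. On FPKM, with 1 library left out, the median of the members reached from 4.08 to 8.37% in mock and from 5.80 to 8.42% with hematin. No paired analysis was possible because the numbers in the sample titles differ between the groups and the numbers 1 to 3 used here only follow the order of deposit. With at least 4399 counts, depth limits only the spread of the steadiest members.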
